A study of Homo sapiens with 6 samples.

Results

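Genes that supply peptides to MHC class I molecules were followed in KMM1, a human cell line from multiple myeloma. The 10 genes were TAP1, TAP2, TAPBP, TAPBPL, PSMB8, PSMB9, PSMB10, PSME1, ERAP1 and ERAP2, chosen by symbol. The symbols matched 11 of the 57290 gene IDs quantified, because TAP2 also labels a read-through ID. Of the 10 genes, 5 rose in TAZ libraries and 0 fell. The largest difference was that of TAP1, a peptide pump subunit, at 438 ± 32.3 scaled TPM in TAZ libraries and 95.2 ± 9.004 in empty-vector libraries (SD, n = 3 each).

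The study compared KMM1 cells transduced with a lentivirus expressing TAZ, a transcriptional co-activator of the Hippo pathway encoded by WWTR1, with KMM1 cells transduced with the empty vector, labelled WPI. There were 3 libraries in each group, made from polyadenylated RNA taken on day 4 after transduction. Both groups thus carry a lentivirus, and all cells come from 1 line. The sources used here do not name the promoter that drives the transgene. Separate cultures are not stated in the labels. A p-value sets a difference against the spread of these 6 samples within their groups, and that spread may be only technical.

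As background, class I molecules present short peptides cut from the cell's own proteins at the cell surface. The proteasome cuts the proteins, and interferon gamma is known to induce catalytic subunits that replace the constitutive ones in the immunoproteasome. TAP carries the peptides into the endoplasmic reticulum, aminopeptidases trim them there, and tapasin holds empty class I molecules beside TAP while they load. Myeloma cells make large amounts of secreted protein and depend on proteasomes, which makes them sensitive to proteasome inhibitors.

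By their RefSeq starts TAP1 and PSMB9 lie head to head on chromosome 6. They had the largest differences of the 10, so the sequence before each of these starts is shown. The sequences are from RefSeq (GRCh38.p14), whereas expression was quantified on hg19, and all 10 symbols were matched. The first line gives the 250 bases before the TAP1 start nearer to PSMB9 (chr6:32853705-32853954, minus strand). The second gives the 250 bases before the PSMB9 start (chr6:32853942-32854191, plus strand). The stretches share 13 bases, and 487 bases lie between the starts. Capitals mark matches to GAAANNGAAA, a pattern of interferon regulatory factors, and to GGGACTTTCC, a pattern of NF-kB.
TAP1: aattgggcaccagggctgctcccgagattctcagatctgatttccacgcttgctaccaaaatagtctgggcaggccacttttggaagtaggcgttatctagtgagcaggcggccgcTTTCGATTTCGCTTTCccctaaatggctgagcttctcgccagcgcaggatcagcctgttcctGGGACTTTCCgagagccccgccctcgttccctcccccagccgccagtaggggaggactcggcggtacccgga
PSMB9: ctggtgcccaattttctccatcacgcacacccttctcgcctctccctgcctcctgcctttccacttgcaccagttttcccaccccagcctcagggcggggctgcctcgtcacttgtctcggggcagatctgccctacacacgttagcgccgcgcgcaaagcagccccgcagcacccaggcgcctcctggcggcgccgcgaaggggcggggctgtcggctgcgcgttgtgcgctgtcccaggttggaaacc

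Windows from 250 bases before to 50 bases after each annotated start were searched on both strands. GAAANNGAAA was found in at least 1 window of 8 of the 10 genes, against 4.38% of 27305 genes in the table. The 10 genes have 15 windows, and genes with several windows had more chances of a match. No match was in the windows of PSMB9 and TAPBPL. TTCNNNGAA, a pattern of STAT dimers, was found for 2 of the 10 genes (PSMB8 and TAP1) against 9.38% of all genes. For TAP1 it lies in another window (chr6:32852712-32853011) than the one that holds the stretch printed above. GGGACTTTCC was found for 1, TAP1, against 0.23% of all genes. GGAATG, the pattern of the TEAD factors through which TAZ acts, was found for 2 (ERAP1 and PSMB8) against 16.73% of all genes. For ERAP1 it lies in another window than the GAAANNGAAA match. The TAP1 window with the printed stretch and the TAPBP window each hold a pair of GAAANNGAAA matches that overlap by 4 bases. No match overlapped one of another pattern. A match describes letters in a window and is not a measured binding site.

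The stretches around the GAAANNGAAA matches show how alike the core is in genes that passed the expression test and genes that did not. Capitals mark the match, on either strand. TAP2 (chr6:32838773-32838812, minus), PSME1 (chr14:24136184-24136223, plus) and ERAP2 (chr5:96876455-96876494, plus) passed the test. PSMB8 (chr6:32844027-32844066, minus), PSMB10 (chr16:67936847-67936886, minus), TAPBP (chr6:33314068-33314113, minus) and ERAP1 (chr5:96807919-96807958, minus) did not. The first base of the match lies 58 bases before the start in TAP2, 30 in ERAP2, 21 in PSMB10, 20 in TAPBP and 4 in PSMB8, and after the start in PSME1 and ERAP1.
TAP2: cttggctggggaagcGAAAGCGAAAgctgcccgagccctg
PSME1: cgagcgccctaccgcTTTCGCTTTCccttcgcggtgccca
ERAP2: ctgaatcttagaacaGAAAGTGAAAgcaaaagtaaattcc
PSMB8: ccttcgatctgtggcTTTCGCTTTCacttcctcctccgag
PSMB10: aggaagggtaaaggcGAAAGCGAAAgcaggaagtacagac
TAPBP: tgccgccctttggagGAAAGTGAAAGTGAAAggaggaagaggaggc
ERAP1: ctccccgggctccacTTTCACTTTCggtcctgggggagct

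All 10 genes passed the filter of a mean of at least 1 TPM and entered the test. TPM gives the share of a transcript among all transcripts of a library, corrected for length; here it was scaled between libraries. Differences are TAZ minus empty vector in log2(scaled TPM + 1), a scale that understates changes of genes with low TPM, and were tested with limma with Benjamini-Hochberg adjustment over 19390 genes. At an adjusted p under 0.05, 623 of these genes (3.21%) passed. In TAZ libraries 2.25% of the tested genes were higher and 0.964% lower, against 5 of 10 and 0 of 10 for the peptide supply genes. At an unadjusted limma p under 0.05, 6 of the 10 were higher and 0 lower, against 1446 and 2037 of the 19390 tested genes. Every TAZ library stood above every empty-vector library for 6 of the 10, against 10.1% of tested genes. All 10 differences were above 0, as were those of 8766 of the 19390 tested genes. The median of the 10 was 1.05, against -0.05 over the tested genes, or 0.17 over the tested genes with no scaling between libraries. With 1 library left out, 2 of the 10 passed without TAZ library 1, 1 without TAZ library 2 or 3, 3 without empty-vector library 1, 1 without empty-vector library 2 and 4 without empty-vector library 3. In RNA from bulk cells, fewer cells that express a gene and less RNA per cell cannot be told apart.

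The libraries held 1130 to 1608 megabases of aligned sequence in the TAZ group and 1099.95 to 2033 in the empty-vector group, and correlated at 0.878 to 0.948. WWTR1 had 365, 138 and 145 scaled TPM in TAZ libraries, against 2.35, 1.21 and 1.40 in empty-vector libraries, as labelled. All 6 plasma cell markers had a mean of at least 1 TPM, with a sum of 1036 to 1231 in TAZ libraries and 991 to 1788 in empty-vector libraries, and SDC1 and IRF4 fell. Some markers of other cell types moved with the group. The 5 epithelial markers summed to 957 to 2293 in TAZ libraries and 194 to 322 in empty-vector libraries, led by KRT8. KRT8 and KRT18 rose, while EPCAM (limma adjusted p = 0.972) and CDH1 (0.161) did not pass. CDH1 went the other way, with a mean of 25.2 in TAZ libraries and 48.7 in empty-vector libraries, without overlap. KRT19 had a mean of 0.0378 in TAZ libraries and 0.0271 in empty-vector libraries. The 5 fibroblast markers summed to 6.40 to 7.14 in TAZ libraries and 2.12 to 2.61 in empty-vector libraries, and DCN rose. DCN had a mean of 3.39 in TAZ libraries and 0.113 in empty-vector libraries. COL1A1 did not pass, with means of 1.73 and 1.79 (limma adjusted p = 0.949). COL1A2 and COL3A1 were higher without overlap but below the filter, as was PDGFRB, which overlapped. The 5 myeloid markers summed to 1.95 to 2.00 in TAZ libraries and 5.09 to 5.87 in empty-vector libraries, with CD68 and LYZ under 0.1 in every library and CD14 lower. The 5 T and NK cell markers summed to 0.894 to 1.46 in TAZ libraries and 0.639 to 1.14 in empty-vector libraries, with CD3D and NKG7 under 0.1, and the 3 B cell markers to 1.39 to 2.14 in TAZ libraries and 1.305 to 1.97 in empty-vector libraries. The 3 endothelial markers quantified summed to 0.0905 to 0.145 in TAZ libraries and 0 to 0.223 in empty-vector libraries. The part of these markers in the differences of the peptide supply genes was not tested.

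**Figure D1:**
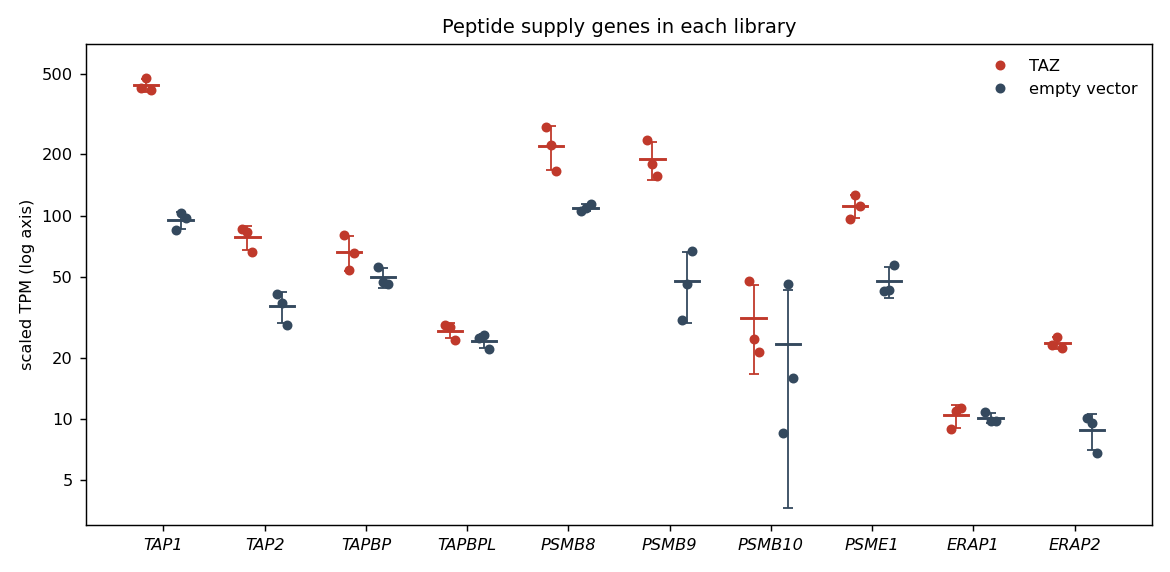
Scaled TPM (log axis) of the 10 genes in each library, TAZ in red left of empty vector in dark blue; points are libraries, bars the mean and whiskers the SD (n = 3). The groups are separate for TAP1, TAP2, PSMB8, PSMB9, PSME1 and ERAP2 and overlap for TAPBP, TAPBPL, PSMB10 and ERAP1.

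The transporter genes both rose. TAP1 (ENSG00000168394.9, chromosome 6, 32812986 to 32821755, minus strand, hg19) encodes the subunit of the pump that pairs with TAP2. It had 423.6, 475.1 and 415.5 scaled TPM in TAZ libraries 1, 2 and 3, against 85.4, 103.0 and 97.3 in empty-vector libraries 1, 2 and 3. In these gene totals the libraries of each group lie close together and far from the other group. The ratio of the mean totals was 4.60, and the log2 difference 2.19 ± 0.16 (SE, limma adjusted p = 0.00122). Exons overlapped by another gene held 0% of TAP1 bases in TAZ library 1 and 38.4% and 44.6% in TAZ libraries 2 and 3. They held 30.0% to 48.1% in empty-vector libraries. Over the other TAP1 exons the TAZ libraries spread more, at 540, 384 and 309, against 56.8, 84.8 and 88.5 in empty-vector libraries. TAP1 passed in 16 of 16 alternative settings, with log2 differences of 2.12 to 2.45.

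TAP2 (ENSG00000204267.9, chromosome 6, 32789610 to 32806557, minus strand) had 86.2, 83.2 and 66.4 scaled TPM in TAZ libraries, against 41.2, 37.0 and 29.1 in empty-vector libraries. The lowest TAZ library was above the highest empty-vector library. The ratio of the means was 2.20, and the log2 difference 1.12 ± 0.20 (limma adjusted p = 0.0369). With any 1 of the 6 libraries left out, the adjusted p was 0.0566 to 0.177. It was 0.116 with no filter on low values.

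The read-through ID that shares the TAP2 symbol (ENSG00000250264.1, 32781544 to 32806599) is 1 transcript running through TAP2 and HLA-DOB, which encodes a class II chaperone subunit. It had 18.0, 45.4 and 21.8 scaled TPM in TAZ libraries, against 9.68, 17.1 and 6.55 in empty-vector libraries, and did not pass (log2 difference 1.26 ± 0.44, limma adjusted p = 0.217). Exons of this ID overlapped 27 of the 30 exon records of TAP2, so the division of reads between the IDs is uncertain. Of its 15 exons, 11 overlap TAP2 and 4 overlap HLA-DOB. The 4 on the HLA-DOB side had a depth of 0 in all 6 libraries, so all of its signal lay on exons that overlap TAP2. With both IDs summed, the TAP2 log2 difference was 1.18, with an adjusted p of 0.0528. HLA-DOB itself had 1.70, 2.84 and 2.17 scaled TPM in TAZ libraries, against 3.98, 1.77 and 1.22 in empty-vector libraries. The ratio of TAP1 to TAP2 was 4.91, 5.71 and 6.25 in TAZ libraries, against 2.07, 2.79 and 3.34 in empty-vector libraries, with no overlap.

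Neither tapasin passed the test. TAPBP, tapasin, which holds class I molecules at TAP (chromosome 6, 33267471 to 33282164, minus strand), had 79.8, 53.7 and 65.8 scaled TPM in TAZ libraries, against 56.0, 47.2 and 45.9 in empty-vector libraries. TAZ library 2 lay below empty-vector library 1, and the log2 difference was 0.40 ± 0.20 (limma adjusted p = 0.349). TAPBPL, a tapasin homolog that edits peptides outside the loading complex (chromosome 12, 6560856 to 6575683, plus strand), had 28.8, 28.1 and 24.5 scaled TPM in TAZ libraries, against 24.997, 25.7 and 22.1 in empty-vector libraries. The groups overlapped, and the log2 difference was 0.16 ± 0.16 (limma adjusted p = 0.629).

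Of the 3 inducible catalytic subunits of the immunoproteasome, 1 passed. PSMB9 (chromosome 6, 32811913 to 32827362, plus strand) replaces PSMB6. It had 235.9, 178.8 and 156.0 scaled TPM in TAZ libraries, against 30.6, 45.8 and 67.2 in empty-vector libraries. The groups were far apart, with a wider spread among the empty-vector libraries than TAP1 had. The ratio of the means was 3.97, and the log2 difference 2.02 ± 0.32 (limma adjusted p = 0.0234). Without TAZ library 1, 2 or 3 or empty-vector library 2 the adjusted p was 0.0683 to 0.101. With no filter on low values it was 0.0766.

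PSMB8 (ENSG00000204264.4, chromosome 6, 32808494 to 32812480, minus strand) replaces PSMB5. It had 273.8, 223.5 and 166.2 scaled TPM in TAZ libraries, against 105.5, 108.5 and 114.2 in empty-vector libraries. The groups did not overlap, but the log2 difference of 0.98 ± 0.22 did not pass (limma adjusted p = 0.0752). With no scaling between libraries it was 1.24, with an adjusted p of 0.0102.

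PSMB10 (chromosome 16, 67968405 to 67970990, minus strand) replaces PSMB7. It had 47.9, 24.6 and 21.2 scaled TPM in TAZ libraries, against 8.48, 45.9 and 15.9 in empty-vector libraries. Empty-vector library 2 stood above TAZ libraries 2 and 3, and the log2 difference was 0.63 ± 0.61 (limma adjusted p = 0.615). It was 0.28 without TAZ library 1, 0.11 without empty-vector library 1 and 1.26 without empty-vector library 2, and did not pass in any of these. In empty-vector library 2, 28.2 scaled TPM lay on the transcript ENST00000574576.2, which had 0, 2.22 and 1.56 in TAZ libraries and 0.250 and 0 in the other empty-vector libraries.

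The overlapping gene CTC-479C5.12, on the same strand, was listed at 0 in empty-vector library 2, against 23.6, 12.4 and 13.4 scaled TPM in TAZ libraries and 6.88 and 14.1 in the other empty-vector libraries. Exons it shares with PSMB10 held 64.0% of the PSMB10 bases in empty-vector library 2 and 1.46% to 5.45% in the other libraries. Over PSMB10 exons that overlap no other gene, scaled levels were 94.0, 46.3 and 40.4 in TAZ libraries, against 17.2, 22.8 and 30.8 in empty-vector libraries. On these exons the groups did not overlap; the log2 difference was 1.25 (limma adjusted p = 0.158).

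PSME1 (chromosome 14, 24605367 to 24608176, plus strand) encodes a subunit of the interferon-inducible activator ring that opens the proteasome, together with PSME2. PSME1 rose, with 96.6, 125.7 and 112.0 scaled TPM in TAZ libraries, against 42.5, 43.1 and 57.1 in empty-vector libraries. The groups were separate. The ratio of the means was 2.34, and the log2 difference 1.22 ± 0.19 (limma adjusted p = 0.0243). Without TAZ library 2 or 3 or empty-vector library 1 or 2 the adjusted p was 0.0775 to 0.127. It was 0.0833 with no filter on low values and 0.0528 over exons that overlap no other gene, although the overlapped exons of PSME1 held 0% of its bases in every library.

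Of the aminopeptidases, ERAP2 rose and ERAP1 did not pass. ERAP2 (ENSG00000164308.12, chromosome 5, 96211643 to 96255420, plus strand) had 23.01, 25.3 and 22.4 scaled TPM in TAZ libraries, against 10.1, 9.49 and 6.80 in empty-vector libraries. No library of 1 group fell in the range of the other. The ratio of the means was 2.68, and the log2 difference 1.34 ± 0.19 (limma adjusted p = 0.0148). Without TAZ library 1, 2 or 3 or empty-vector library 2 the adjusted p was 0.0511 to 0.0892, and with no filter on low values it was 0.0548.

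ERAP1 (chromosome 5, 96096521 to 96143803, minus strand), its neighbour and partner in trimming, had 8.86, 10.9 and 11.3 scaled TPM in TAZ libraries, against 10.8, 9.72 and 9.78 in empty-vector libraries. The groups overlapped, and they differed by 0.03 ± 0.16 in log2 (limma adjusted p = 0.937). The ratio of ERAP2 to ERAP1 was 2.60, 2.32 and 1.97 in TAZ libraries, against 0.940, 0.976 and 0.695 in empty-vector libraries. Each TAZ library had more ERAP2 than ERAP1 per length, and each empty-vector library less.

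The order of levels in scaled TPM differed between the groups. In TAZ libraries TAP1 (mean 438) stood above PSMB8 (221) and PSMB9 (190), whose libraries overlapped, then PSME1 (111), TAP2 (78.6) and TAPBP (66.4). The last pair overlapped, as did PSMB10 (31.2) with TAPBPL (27.2) and TAPBPL with ERAP2 (23.6), and ERAP1 (10.4) was lowest. In empty-vector libraries PSMB8 (109) was above TAP1 (95.2), without overlap. TAPBP (49.7), PSMB9 (47.9) and PSME1 (47.6) overlapped each other, and TAP2 (35.8), which followed, overlapped PSMB9. TAPBPL (24.3) came next, and ERAP1 (10.1) and ERAP2 (8.81) were lowest and overlapped. PSMB10 (23.4) ranged widely among empty-vector libraries and overlapped all of these except PSMB8, TAP1 and TAPBP.

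**Figure D2:**
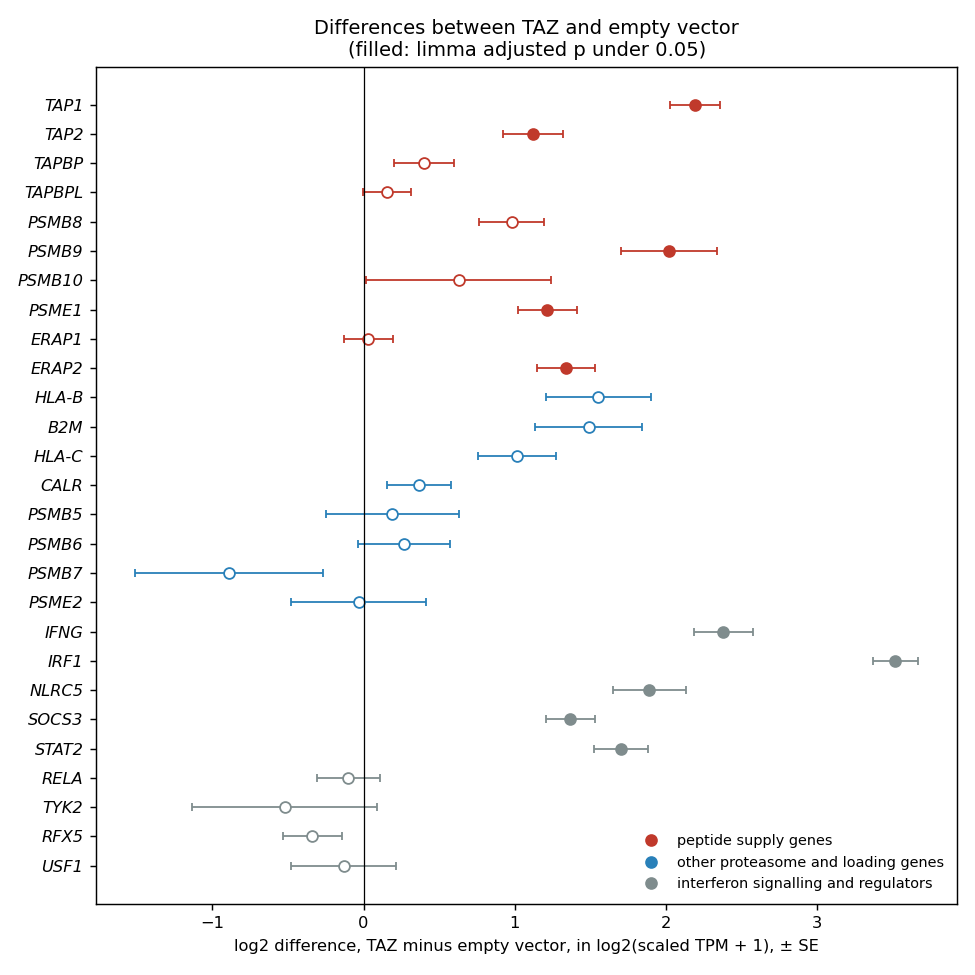
Log2 difference, TAZ minus empty vector, in log2(scaled TPM + 1), with SE as whiskers, for the 10 peptide supply genes, other proteasome and loading genes, and interferon signalling genes and regulators named in the text. Filled points passed a limma adjusted p of 0.05: 5 of the 10 peptide supply genes and 5 of the interferon signalling genes and regulators shown, of which IRF1 lies farthest to the right.

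At the level of transcripts, 72 are annotated for these genes, 41 were listed at 0 in every library, and 24 had a mean of at least 1 TPM. Of these 24, 3 were higher in TAZ libraries and 0 lower (limma, adjusted over 29480 transcripts; 0 lower at an unadjusted p under 0.05), against 1.11% of tested transcripts called higher. For 11 of the 24, every TAZ library stood above every empty-vector library, against 8.29% of tested transcripts. The count of 3 became 1 without TAZ library 1, 2 without empty-vector library 3, and 0 without any 1 of the other libraries.

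TAP1 transcript ENST00000354258.4 had 170.2, 322.7 and 246.7 scaled TPM in TAZ libraries, against 72.1, 63.3 and 60.2 in empty-vector libraries (1.86 ± 0.26 on the log2 scale; limma adjusted p = 0.0411). The second TAP1 transcript, ENST00000486332.1, had 235.1, 119.4 and 158.1 in TAZ libraries, against 13.2, 37.7 and 36.2 in empty-vector libraries, and did not pass (limma adjusted p = 0.111). The first transcript held 40.2% to 67.9% of TAP1 TPM in TAZ libraries and 61.5% to 84.5% in empty-vector libraries, ranges that overlap. For PSMB9 the transcript that passed was ENST00000395330.1, with 188.1, 149.1 and 130.7 scaled TPM in TAZ libraries, against 30.5, 35.8 and 55.1 in empty-vector libraries. This transcript is annotated from 32811913 in hg19, on the far side of TAP1, and not from the RefSeq start whose sequence is shown. Its first segment, of 139 bases, had a depth of 0 in every library. For ERAP2 it was ENST00000437043.3, which held 97.7% to 100% of the gene in each library.

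The PSME1 transcripts varied more between libraries than the gene did. ENST00000206451.6 had 29.4, 91.2 and 0 scaled TPM in TAZ libraries, against 5.51, 24.2 and 33.6 in empty-vector libraries. ENST00000561059.1 had 28.9, 0 and 77.0 in TAZ libraries, against 22.3, 0 and 0 in empty-vector libraries. In TAZ libraries 2 and 3 and in empty-vector libraries 2 and 3, 1 of these transcripts was listed at 0 while the other was not. ENST00000382708.3 was above 0 in every library, with 38.3, 34.6 and 35.0 in TAZ libraries, against 14.7, 18.9 and 23.6 in empty-vector libraries (limma adjusted p = 0.162).

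**Figure D3:**
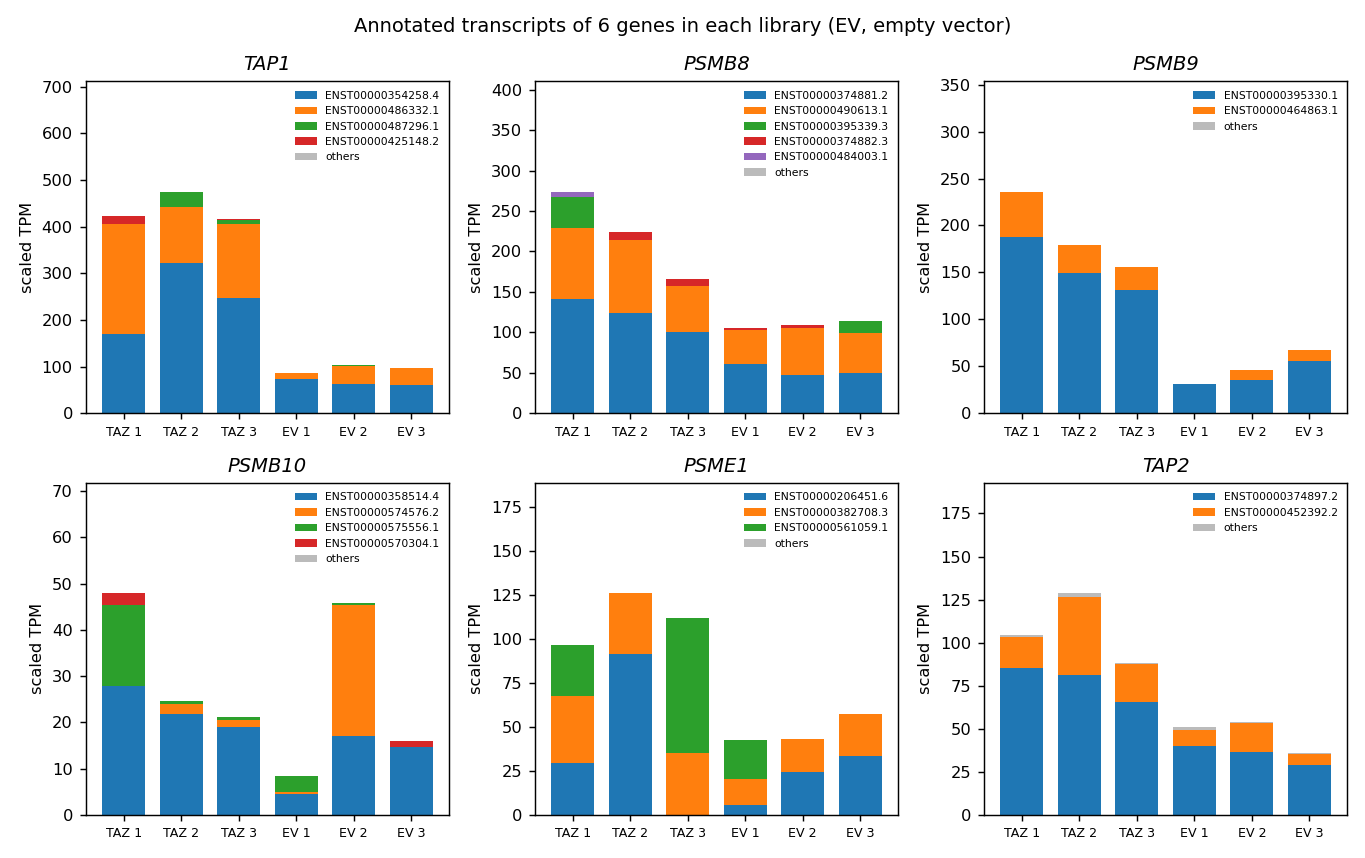
Scaled TPM of the annotated transcripts of TAP1, PSMB8, PSMB9, PSMB10, PSME1 and TAP2, stacked in each TAZ library and, to their right, each empty-vector (EV) library; the TAP2 panel includes the read-through transcript ENST00000452392.2. The mix of PSME1 and PSMB10 transcripts changes between libraries of 1 group, with 28.2 scaled TPM on ENST00000574576.2 of PSMB10 in empty-vector library 2.

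Exons were compared in the same way, over segments of at least 50 bases with signal. Mean depth was higher in TAZ libraries in 17 of 17 segments of TAP1, 10 of 10 of PSMB8, 10 of 10 of PSMB9, 13 of 13 of PSME1 and 10 of 10 of ERAP2. In these 5 genes no such segment had the lower mean in TAZ libraries. Every TAZ library stood above every empty-vector library in fewer of them: 11 segments of TAP1, 3 of PSMB8, 6 of PSMB9, 8 of PSME1 and 4 of ERAP2. ERAP2 had signal in only 10 of its 29 segments. The mean was higher in 10 of 12 segments of TAP2, 8 of 10 of TAPBP, 8 of 10 of TAPBPL, 7 of 11 of PSMB10 and 5 of 13 of ERAP1. Segments of a gene often carry the same depth, so these counts are not counts of independent measurements. The share over all genes was not computed. A higher mean can also hide a low library. In the TAP1 segments of 465 and 111 bases, TAZ library 1 had 0.007, against 141 to 206 in empty-vector libraries. Elsewhere the higher mean rests on 1 library: the PSMB9 segment of 129 bases had 289 in TAZ library 1 and 0 in every other library.

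Some of these exons lie under exons of other genes, and the sources used here do not say whether reads were assigned by strand. TAPSAR1, an RNA gene on the plus strand that spans the interval between PSMB8 and TAP1, overlaps exons of both, on the opposite strand, and of PSMB9, on its own strand. It had 24.3, 26.5 and 22.1 scaled TPM in TAZ libraries, against 14.8, 13.4 and 12.9 in empty-vector libraries (log2 difference 0.78 ± 0.15, limma adjusted p = 0.0531). Its reads and those of PSMB8 and TAP1 cannot be told apart without strand. Over exons that overlap no other gene the log2 difference was 2.40 for TAP1 (limma adjusted p = 0.00687), 2.01 for PSMB9 (0.0211), 1.09 for TAP2 (0.0324) and 1.02 for PSMB8 (0.0597). ERAP1 shares exons with CAST and CTD-2260A17.1, PSME1 with EMC9, and TAPBPL with VAMP1 and CD27. Of these neighbours with a mean of at least 1 TPM, CAST had an adjusted p of 0.403, CTD-2260A17.1 0.770, EMC9 0.284 and VAMP1 0.988 (limma).

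Inducible subunits were set against the constitutive subunits they replace, PSMB5, PSMB6 and PSMB7, and PSME1 against PSME2. These 4 partners were chosen after their values were seen. None passed the test: the limma adjusted p was 0.848 for PSMB5, 0.673 for PSMB6, 0.488 for PSMB7 and 0.977 for PSME2. PSMB9 was 65.1%, 53.3% and 48.8% of the PSMB9 and PSMB6 TPM in TAZ libraries, against 21.8%, 34.1% and 26.0% in empty-vector libraries, with no overlap. PSMB8 was 39.9%, 39.0% and 37.3% of the PSMB8 and PSMB5 TPM in TAZ libraries, against 41.6%, 20.2% and 21.2% in empty-vector libraries. Here empty-vector library 1 was above all TAZ libraries, with 148.3 scaled TPM of PSMB5 against 429.4 and 423.6 in the other empty-vector libraries. PSMB10 was 20.7%, 29.0% and 34.9% of the PSMB10 and PSMB7 TPM in TAZ libraries, against 9.47%, 21.6% and 6.99% in empty-vector libraries, and the groups overlapped. PSMB7 itself had 183.8, 60.2 and 39.5 scaled TPM in TAZ libraries, against 81.0, 166.5 and 211.4 in empty-vector libraries. Its spread enters this share and the share over all subunits given next.

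The 3 inducible subunits together made up 43.5%, 43.0% and 41.6% of the TPM of all 6 subunits in TAZ libraries, against 29.9%, 22.6% and 19.3% in empty-vector libraries. The groups were separate, with means of 42.7% ± 0.994 in TAZ libraries and 23.9% ± 5.43 in empty-vector libraries (SD, n = 3 each). PSME2 had 191.6, 134.6 and 55.4 scaled TPM in TAZ libraries, against 109.1, 103.4 and 136.2 in empty-vector libraries. The ratio of PSME1 to PSME2 was 0.504, 0.934 and 2.02 in TAZ libraries, against 0.390, 0.417 and 0.420 in empty-vector libraries. The groups did not overlap, but the TAZ libraries were spread widely, with library 1 close to the empty-vector values.

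**Figure D4:**
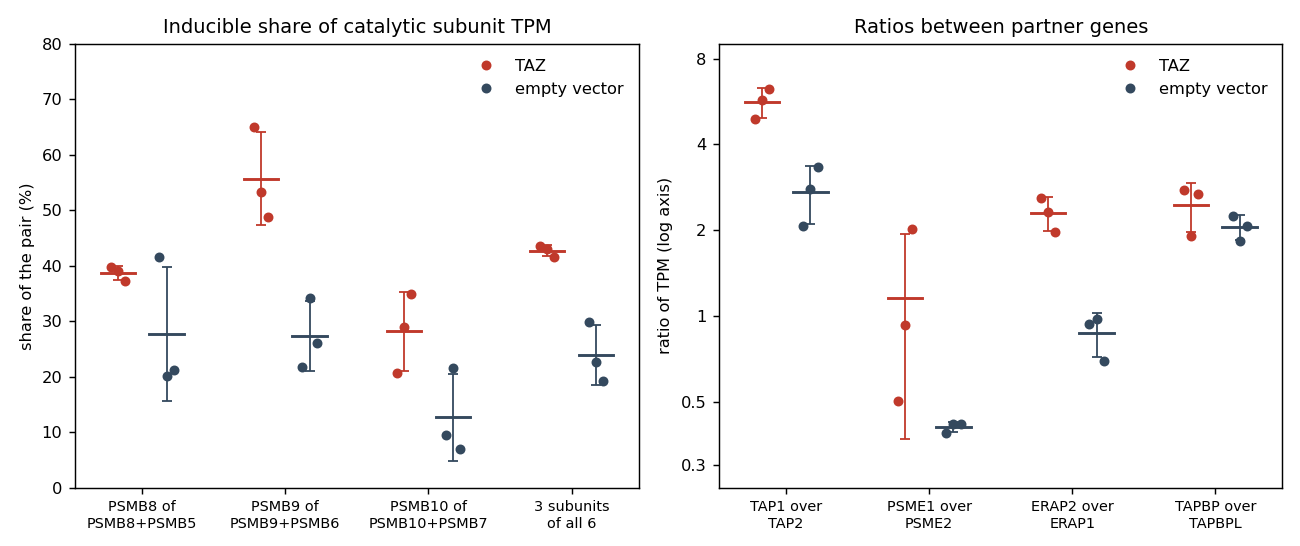
Left, share (%) of each inducible subunit in the TPM of its pair, and of the 3 inducible subunits in all 6; right, ratios of partner genes (log axis). Points are libraries, TAZ left of empty vector, with mean and SD (n = 3); the groups are separate for PSMB9, for all 6 subunits, and for the ratios of TAP1 to TAP2, PSME1 to PSME2 and ERAP2 to ERAP1.

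The other genes of peptide supply and class I loading were described from a list of 25, of which 24 were tested. Of these, 1 rose and 0 fell (limma), against 2.25% and 0.964% of all tested genes. At an unadjusted limma p under 0.05, 5 were higher and 1 lower, against 1446 and 2037 of 19390 tested genes. The median log2 difference of the list was 0.11. With no scaling 4 passed, and with no filter, or without TAZ library 1 or 3 or empty-vector library 1 or 2, 0 did. HLA-B, a class I heavy chain, had 2179, 1072 and 2415 scaled TPM in TAZ libraries, against 515, 728 and 593 in empty-vector libraries (log2 difference 1.55 ± 0.35, limma adjusted p = 0.0766). HLA-C, another heavy chain, had 911, 805 and 602 in TAZ libraries, against 288, 465 and 396 in empty-vector libraries (1.02 ± 0.26, adjusted p = 0.109). For both genes the groups were separate. Class I heavy chain genes are close paralogs that share reads, so these values are uncertain.

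B2M, the light chain of all class I molecules, had 1864, 1598 and 1459 scaled TPM in TAZ libraries, against 337, 818 and 711 in empty-vector libraries (1.49 ± 0.35, limma adjusted p = 0.0935). The groups were separate. CALR, the chaperone calreticulin of the loading complex, had 755, 536 and 632 in TAZ libraries, against 491, 576 and 421 in empty-vector libraries, with overlap (0.37 ± 0.21, adjusted p = 0.412).

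Interferon signalling genes and regulators known to act on genes of this pathway were described from a list of 29, of which 27 were tested. Of these, 6 rose and 0 fell (limma), against 2.25% and 0.964% of all tested genes. At an unadjusted limma p under 0.05, 6 were higher and 2 lower, against 1446 and 2037 of 19390 tested genes. The median log2 difference of the list was -0.07. Of the 27 differences 12 were above 0, against 8766 of the 19390. The ligand IFNG, interferon gamma, had 5.10, 4.24 and 5.36 scaled TPM in TAZ libraries, against 0, 0.124 and 0.285 in empty-vector libraries (2.38 ± 0.19, limma adjusted p = 0.00187). Its receptor genes IFNGR1 and IFNGR2 did not pass, with adjusted p of 0.994 and 0.804.

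IRF1, a factor known to bind GAAANNGAAA and the region between TAP1 and PSMB9, had 86.7, 73.2 and 77.9 scaled TPM in TAZ libraries, against 6.28, 6.07 and 5.65 in empty-vector libraries. The groups were far apart. The ratio of the means was 13.2, and the log2 difference 3.52 ± 0.15 (limma adjusted p = 0.000228). NLRC5, the transactivator of class I genes, had 37.5, 38.8 and 33.2 in TAZ libraries, against 12.9, 8.45 and 6.85 in empty-vector libraries (1.89 ± 0.24, adjusted p = 0.00958).

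STAT2, a transcription factor of the type I interferon response, had a log2 difference of 1.70 ± 0.18 (limma adjusted p = 0.00424). SOCS3, a feedback inhibitor of cytokine receptors, had one of 1.37 ± 0.16 (adjusted p = 0.00735). Of the genes that did not pass, the most abundant were RELA, an NF-kB subunit, TYK2, a receptor kinase, and RFX5 and USF1, DNA-binding factors, with limma adjusted p between 0.406 and 0.866. IFNB1, interferon beta, and IRF8 were below the filter.

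The genes whose levels over the 6 libraries followed TAP1 most closely were found by the root mean square distance of centred log2(scaled TPM + 1). Among 19389 other tested genes the nearest were LATS2, a Hippo pathway kinase, at 0.0784, PRICKLE1, a planar cell polarity protein, at 0.0853 and MECOM, a transcription factor, at 0.0899. LATS2 had 17.4, 18.1 and 15.2 scaled TPM in TAZ libraries, against 2.75, 2.93 and 3.15 in empty-vector libraries. MECOM had 3.97, 4.99 and 3.88 in TAZ libraries, against 0.123, 0.233 and 0.049 in empty-vector libraries. At such low TPM the scale understates the change, so the nearness of MECOM depends on the added 1 TPM. Of the peptide supply genes, PSMB9 ranked 145, ERAP2 250, PSME1 297, TAP2 395 and PSMB8 507. TAPBP ranked 2516, TAPBPL 4700, PSMB10 5526 and ERAP1 6866. The measure depends on the size of the difference and rests on 6 libraries.

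**Figure D5:**
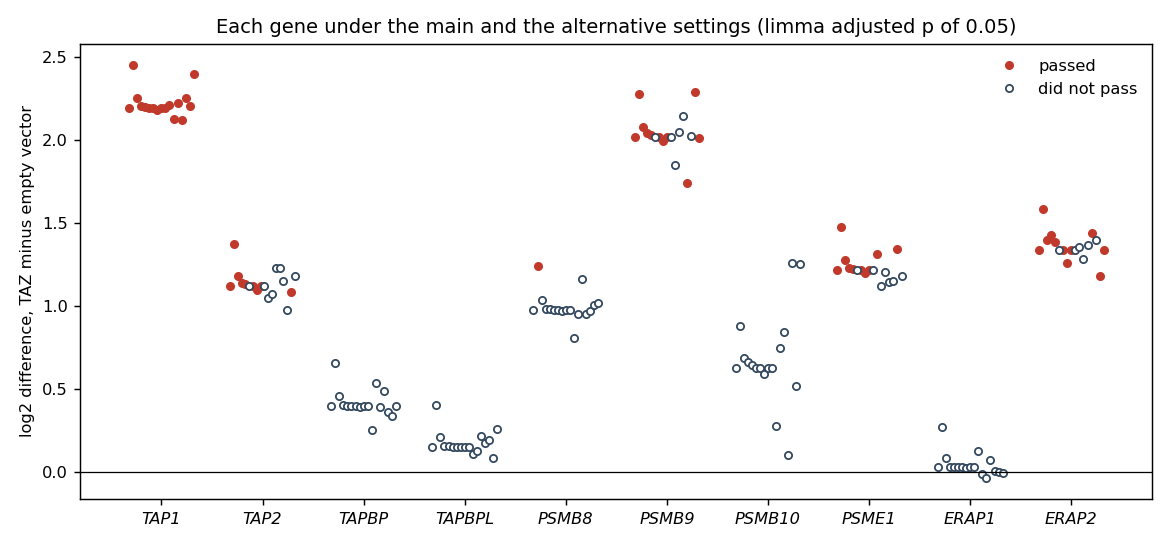
Log2 difference, TAZ minus empty vector, of each of the 10 genes under the main setting (leftmost point of each gene) and the alternatives. Filled points passed a limma adjusted p of 0.05; TAP1 is filled throughout, while TAP2, PSMB9, PSME1 and ERAP2 mix filled and open points at like values and PSMB8 is filled once, at 1.24.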

How the data were processed

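RNA was measured in 3 TAZ and 3 empty-vector libraries of KMM1 cells, grouped by the labels. The submitters' processing notes name hg19, the aligners STAR (2.3.0) and Bowtie2 (2.0.0), and StringTie (1.3.3b) for quantification; the annotation release and the use of strand are not stated there. The values deposited by the authors are TPM and FPKM per transcript, and coverage per transcript and exon, as attributes of each line, a format recorded as other than a plain table. Transcript TPM on primary chromosomes was summed per gene ID. Aligned bases follow from dividing deposited coverage by deposited FPKM; no read counts were used, so depth per gene is unknown.

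TPM was scaled by the median of ratios over genes above 0 in every library. The filter kept genes averaging 1 TPM or more, and log2(TPM + 1) was tested with limma 3.58.1 in R 4.3.3 (trend and robust, no block), with Benjamini-Hochberg adjustment across these genes and a threshold of 0.05. On simulated data the procedure recovered 25 of 100 changes of 2-fold and 84 of 100 of 4-fold, with 4 false calls. The changes were placed only in genes with a mean log2(scaled TPM + 1) above 4, so recovery in lower genes was not tested. A gene that did not pass may thus still differ by 2-fold. Alternatives were other scaling, pseudocounts and filters, a block, each library left out, unshared exons (coverage over their own length, put on the TPM scale), and TAP2 summed over its IDs.

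The genes and lists were chosen with earlier results of these data known. Named genes were the 10, those of each list that passed plus up to 4 of the most abundant others, overlapping neighbours, and the 3 nearest to TAP1. IFNGR1 and IFNGR2, which fall outside that rule, were named after their values were seen. Promoter windows came from RefSeq (GRCh38.p14). Some genes of the lists that were counted are not reported here by name. Spike-in values were not used here.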

Additional observations from a re-analysis of the deposited data

How the results depend on the processing

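Over all tested genes 623 passed; with no filter on low values 352 did, and with any 1 library left out 278 to 774 (278 without TAZ library 2, 331 without TAZ library 3, 410 without empty-vector library 1 and 349 without empty-vector library 2). Of the 10 peptide supply genes 5 rose; the count was 1 with no filter and 1 to 4 with any 1 library left out. On the list of other peptide supply and loading genes 1 rose; the count was 4 with no scaling, 0 with no filter, and 0 to 1 with any 1 library left out. Of the transcripts of the 10 genes 3 rose; 5 did with upper quartile scaling, 0 with no filter, 0 without trend and robust fitting, and 0 to 2 with any 1 library left out. The causes of these changes were not tested. More genes entered the fit with no filter, and fewer libraries with 1 left out. The ERAP1 log2 difference of 0.03 was -0.001 over unshared exons, and -0.035 to 0.128 with any 1 library left out, with -0.010 without TAZ library 2. TAP1 kept its call in 16 of 16 settings, PSMB9 and ERAP2 in 10 of 16, PSME1 in 9 of 16 and TAP2 in 8 of 17, and none of the 10 genes passed as lower in any of these settings.

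Deviations from the group means correlated at r = 0.00401, -0.0244 and -0.0549 between same-numbered libraries. Between differently numbered libraries r was -0.0418 to 0.0697. These values cannot decide whether equal numbers share a culture or a day, which the labels do not say. With the replicate number as a block, 236 genes passed, 1 of the 10 peptide supply genes (TAP1), 0 on the loading list and 0 transcripts.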
